A study of Saccharomyces cerevisiae with 18 samples.

Results

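The genes described here are 38 yeast genes of the general stress response and of reserve carbohydrate metabolism, chosen by name and read from their probe sets, and all 38 were among the 5656 genes measured. They comprise 4 regulators, 12 stress proteins, 5 genes of trehalose metabolism, 7 of glycogen metabolism and 10 encoding hexose-metabolizing and redox enzymes. RNA was measured on 18 Affymetrix YG-S98 arrays, in 6 groups of 3 biological replicates of *Saccharomyces cerevisiae* strain DBY747, and every culture was of mating type *MAT*a and carried the auxotrophic alleles *trp1*Δ289a, *ura3*Δ52, *leu2*Δ112 and *his3*Δ1 of the strain, with its markers CUPr, Can1 and gals. The cultures had reached mid-log phase in the rich glucose medium YPD. Enediynes are antibiotics that cut DNA strands, and 3 groups received one of them from a methanolic stock for 15 min: calicheamicin at 1 nM, esperamicin A1 at 3 nM, or neocarzinostatin at 4 nM as the chromophore extracted from its protein. The control for these groups was methanol vehicle, so all 3 enediyne comparisons share the same methanol arrays. Another group received 210 Gy of γ-radiation with 13 min of incubation at ambient temperature, and its control is mock irradiation in the sample labels and water vehicle in the study's text. The doses were chosen for 20 to 25% lethality, and all cells were of 1 laboratory strain.

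Values are intensities of the probe sets, which track RNA abundance within a gene and were not compared between genes. In RNA of whole cultures, fewer cells expressing a gene and less RNA per cell cannot be told apart. The median intensity per array lay between 15.3 and 16.8. The pheromone genes of mating type a, the type the strain carries, were high on every array (*MFA1* between 695 and 1817, *MFA2* between 1165 and 1819), and its other markers were *STE2* between 35.9 and 113, *BAR1* between 34.3 and 97.5 and *STE6*, near the array medians, between 5.59 and 17.9. Of the markers of mating type alpha, *MF(ALPHA)1*, *MF(ALPHA)2* and *STE3* lay between 7.67 and 22.1, around the medians, and *SAG1* between 37.1 and 61.7. RNA quality was read from the actin controls of the array, as the log2 ratio of the 5′ to the 3′ probe set, which was -3.59 in methanol vehicle replicate 1. It was -0.97 and -0.77 in the other methanol arrays, between -2.34 and -1.53 with esperamicin A1, between -1.34 and -0.74 with calicheamicin and neocarzinostatin, and between -0.80 and -0.69 in the 6 arrays of γ-radiation and mock irradiation. Tests come from limma, with the 18 arrays in a single model, and a called gene is one that differed by at least 1.5-fold with a p, adjusted by Benjamini-Hochberg over the 5656 genes, of at most 0.10.

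Msn2 and Msn4 are related zinc-finger transcription factors that bind the stress response element in the promoters of many genes. In yeast growing on glucose, protein kinase A holds them in the cytoplasm, and heat, oxidants, starvation and other stresses bring them into the nucleus, so their activity depends on their location more than on their own transcripts. Their targets encode chaperones, antioxidant enzymes and the enzymes that make and break down trehalose, a sugar that protects proteins and membranes, and glycogen, a glucose store. The transcripts of these genes are low in cells growing fast on glucose and climb as glucose runs out.

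The largest differences among the 38 genes lay between the controls and not between a treatment and its control. Methanol vehicle had lower levels than mock irradiation for 34 of the 38 genes, and 9 of them were called, all lower: *PGM2*, *GAC1*, *HXK1*, *DDR2*, *SOL4*, *MSC1*, *GRE3*, *TFS1* and *PNC1*. Neither γ-radiation nor any of the enediynes gave a called change. Over all genes, limma called 8.68% between methanol vehicle and mock irradiation, and 5.59% as lower. The median log2 fold change of methanol vehicle over mock irradiation was -0.59 for the 38 genes and -0.05 for all genes.

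**Figure D1:**
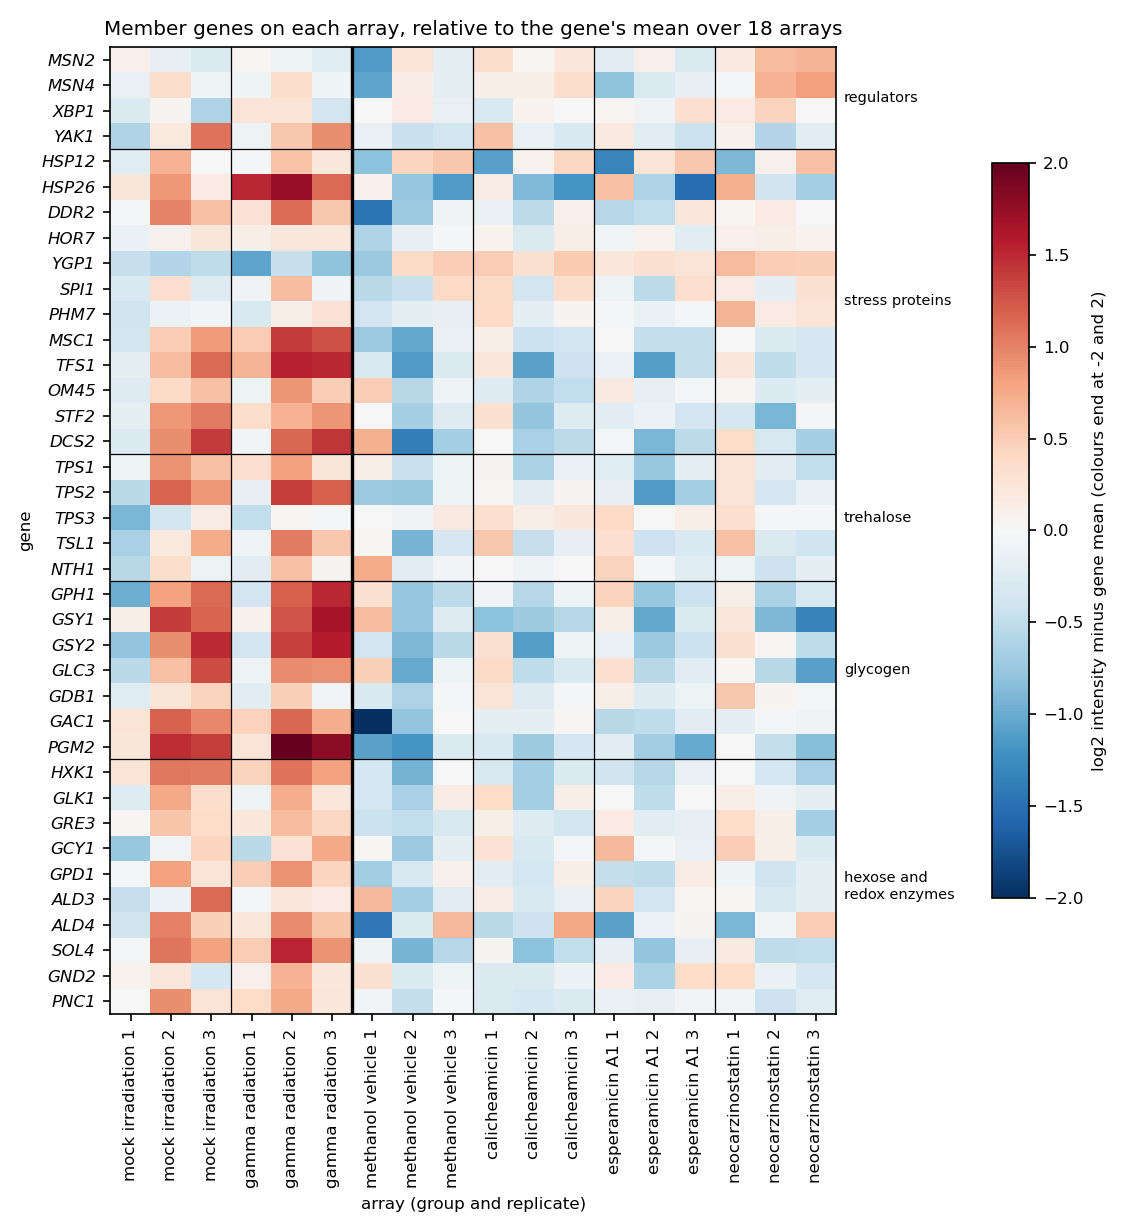
Each row is 1 of the 38 genes, ordered by role, and each column is 1 array; colour gives the log2 intensity minus the gene's mean over the 18 arrays. The right-hand block of 12 arrays that received methanol, alone or with an enediyne, is mostly blue, with median deviations between -0.64 and 0.15, and replicates 2 and 3 of mock irradiation and γ-radiation are mostly red, with medians between 0.51 and 0.80.

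Among the glycogen genes, all 7 had lower means in methanol vehicle than in mock irradiation, with a median log2 difference of -1.03. Of these, 2 were called, where 5.59% of all genes were called lower. *PGM2* (YMR105C) encodes the main phosphoglucomutase, which makes the glucose 1-phosphate used for glycogen and trehalose. Its intensity was 41.3, 38.4 and 71.5 in methanol vehicle replicates 1 to 3, and 102, 242 and 226 in mock irradiation. It was 104, 344 and 301 after γ-radiation, 70.2, 53.3 and 68.6 with calicheamicin, 74.0, 53.5 and 43.2 with esperamicin A1, and 87.0, 62.3 and 47.9 with neocarzinostatin. Each of the 12 arrays that received methanol lay below each of the 6 arrays that did not, and replicate 1 was the lowest of both irradiation groups. The log2 difference between the controls was -1.88 (standard error 0.41, adjusted p = 0.0118 from limma), or 3.67-fold lower in methanol vehicle.

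*GAC1* (YOR178C) encodes the subunit that directs the phosphatase Glc7 to glycogen synthase, which it activates. Its intensity was 12.3, 29.6 and 51.2 in methanol vehicle and 62.3, 117 and 99.7 in mock irradiation. It was 71.2, 114 and 84.9 after γ-radiation, 44.9, 45.4 and 52.9 with calicheamicin, 34.9, 36.3 and 44.6 with esperamicin A1, and 45.7, 50.5 and 48.9 with neocarzinostatin. The arrays with and without methanol did not overlap here either, and methanol vehicle replicate 1, the array with the lowest actin ratio, was the lowest of all. *GAC1* was 3.39-fold lower in methanol vehicle than in mock irradiation (log2 difference -1.76, standard error 0.35, adjusted p = 0.00822 from limma), and -1.21 on the log2 scale without that array. The other glycogen genes were not called: the glycogen synthase genes *GSY2* (-1.15, standard error 0.52, adjusted p = 0.197) and *GSY1* (-1.03, adjusted p = 0.191), the branching enzyme gene *GLC3* (-0.65), the phosphorylase gene *GPH1* (-0.65) and the debranching enzyme gene *GDB1* (-0.47). The mock irradiation arrays were far apart for *GSY2*, *GSY1*, *GLC3* and *GPH1*, with SDs of the log2 values between 0.67 and 1.18. For *GDB1* that SD was 0.35, and its 1.38-fold difference was below the threshold of 1.5-fold. *GSY2* stood at 57.5, 188 and 277 in mock irradiation against 75.8, 53.3 and 67.9 in methanol vehicle, so that mock irradiation replicate 1 fell among the methanol values.

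All 10 genes of the hexose and redox enzymes had lower means in methanol vehicle, with a median log2 difference of -0.62. Of these, 4 were called, where 5.59% of all genes were called lower. *HXK1* (YFR053C) encodes a hexokinase that glucose represses. Its intensity was 409, 269 and 516 in methanol vehicle and 621, 1084 and 1069 in mock irradiation, a log2 difference of -1.22 (standard error 0.26, adjusted p = 0.0108 from limma). After γ-radiation it was 704, 1100 and 910. It was 416, 325 and 431 with calicheamicin, 393, 352 and 469 with esperamicin A1, and 521, 407 and 332 with neocarzinostatin, each below every array that had received no methanol.

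*SOL4* (YGR248W), which encodes a 6-phosphogluconolactonase of the pentose phosphate pathway, was 56.6, 31.6 and 40.8 in methanol vehicle and 59.1, 127 and 105 in mock irradiation (-1.14 on the log2 scale, standard error 0.33, adjusted p = 0.0452 from limma). The controls did not overlap, but the gap between the highest methanol array and mock irradiation replicate 1 was narrow. *SOL4* was 85.4, 174 and 112 after γ-radiation, 62.3, 34.0 and 43.0 with calicheamicin, 53.6, 34.7 and 54.0 with esperamicin A1, and 68.5, 42.3 and 43.0 with neocarzinostatin. Replicate 1 of calicheamicin and of neocarzinostatin thus lay inside the mock irradiation range. *GRE3* (YHR104W), an aldose reductase gene, was 74.2, 71.0 and 80.5 in methanol vehicle and 102, 147 and 130 in mock irradiation (-0.73, standard error 0.23, adjusted p = 0.0645). It was 116, 156 and 133 after γ-radiation, 108, 83.7 and 76.9 with calicheamicin, 112, 86.9 and 89.5 with esperamicin A1, and 130, 108 and 62.4 with neocarzinostatin, so that 4 enediyne arrays were above mock irradiation replicate 1. *PNC1* (YGL037C) encodes the nicotinamidase that feeds the salvage of NAD+. It was 451, 334 and 453 in methanol vehicle and 466, 885 and 564 in mock irradiation (-0.59, standard error 0.21, adjusted p = 0.0967). It was 598, 792 and 545 after γ-radiation, 380.5, 367 and 382 with calicheamicin, 424, 418 and 450.1 with esperamicin A1, and 451, 350.0 and 393 with neocarzinostatin. The methanol arrays of both genes lay below the mock irradiation arrays, for *PNC1* by a small margin against replicate 1. The uncalled members were the glycerol 3-phosphate dehydrogenase gene *GPD1* (-0.65, adjusted p = 0.115), the glucokinase gene *GLK1* (-0.58), the aldehyde dehydrogenase genes *ALD4* (-0.72) and *ALD3* (-0.26), the reductase gene *GCY1* (-0.18) and the 6-phosphogluconate dehydrogenase gene *GND2*, with mean intensities of 25.7 and 25.8.

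Of the 12 stress protein genes, 11 had lower means in methanol vehicle, and the median log2 difference was -0.61. Called as lower were 3, where 5.59% of all genes were. *DDR2* (YOL052C-A) is a small gene known for its induction by DNA damage and many other stresses. Its intensity was 242, 407 and 636 in methanol vehicle and 656, 1327 and 1002 in mock irradiation, a log2 difference of -1.27 (standard error 0.32, adjusted p = 0.0278 from limma). It was 818, 1448 and 971 after γ-radiation, 609.7, 467 and 719.6 with calicheamicin, 451, 475 and 776 with esperamicin A1, and 689, 747 and 674 with neocarzinostatin, where all 3 arrays were above mock irradiation replicate 1. The control arrays did not overlap, with methanol vehicle replicate 3 just under mock irradiation replicate 1.

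*TFS1* (YLR178C), which encodes an inhibitor of carboxypeptidase Y, was 126, 70.3 and 127 in methanol vehicle and 135, 237 and 339 in mock irradiation (-1.09, standard error 0.38, adjusted p = 0.0961 from limma). It was 247, 451 and 440.3 after γ-radiation, 181, 73.6 and 116 with calicheamicin, 142, 72.1 and 111 with esperamicin A1, and 179, 109 and 123 with neocarzinostatin, with replicate 1 of each enediyne above mock irradiation replicate 1. *MSC1* (YML128C), a gene first described for its effect on meiotic recombination between sister chromatids, was 32.3, 26.1 and 48.1 in methanol vehicle and 41.4, 76.1 and 96.7 in mock irradiation (-0.97, standard error 0.30, adjusted p = 0.0616). It was 75.6, 140.0 and 128 after γ-radiation, 58.4, 39.4 and 40.8 with calicheamicin, 53.2, 38.4 and 38.4 with esperamicin A1, and 52.8, 44.1 and 42.1 with neocarzinostatin. The *TFS1* arrays of the controls did not overlap, whereas methanol vehicle replicate 3 was above mock irradiation replicate 1 for *MSC1*. *STF2*, which encodes a factor bound to the mitochondrial ATPase, missed the threshold (-0.88, adjusted p = 0.104), as did *DCS2*, a relative of a decapping enzyme (-1.13, adjusted p = 0.183), and *HSP26*, a small heat shock chaperone (-1.03, standard error 0.47, adjusted p = 0.204). The cell-envelope and other genes *HOR7*, *OM45*, *SPI1*, *HSP12* and *PHM7* had log2 differences between -0.33 and -0.06. *YGP1*, which encodes a secreted glycoprotein of the cell wall, went the other way, with 1179, 2558 and 2767 in methanol vehicle and 1421, 1312 and 1380 in mock irradiation (0.57, standard error 0.24, adjusted p = 0.158).

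**Figure D2:**
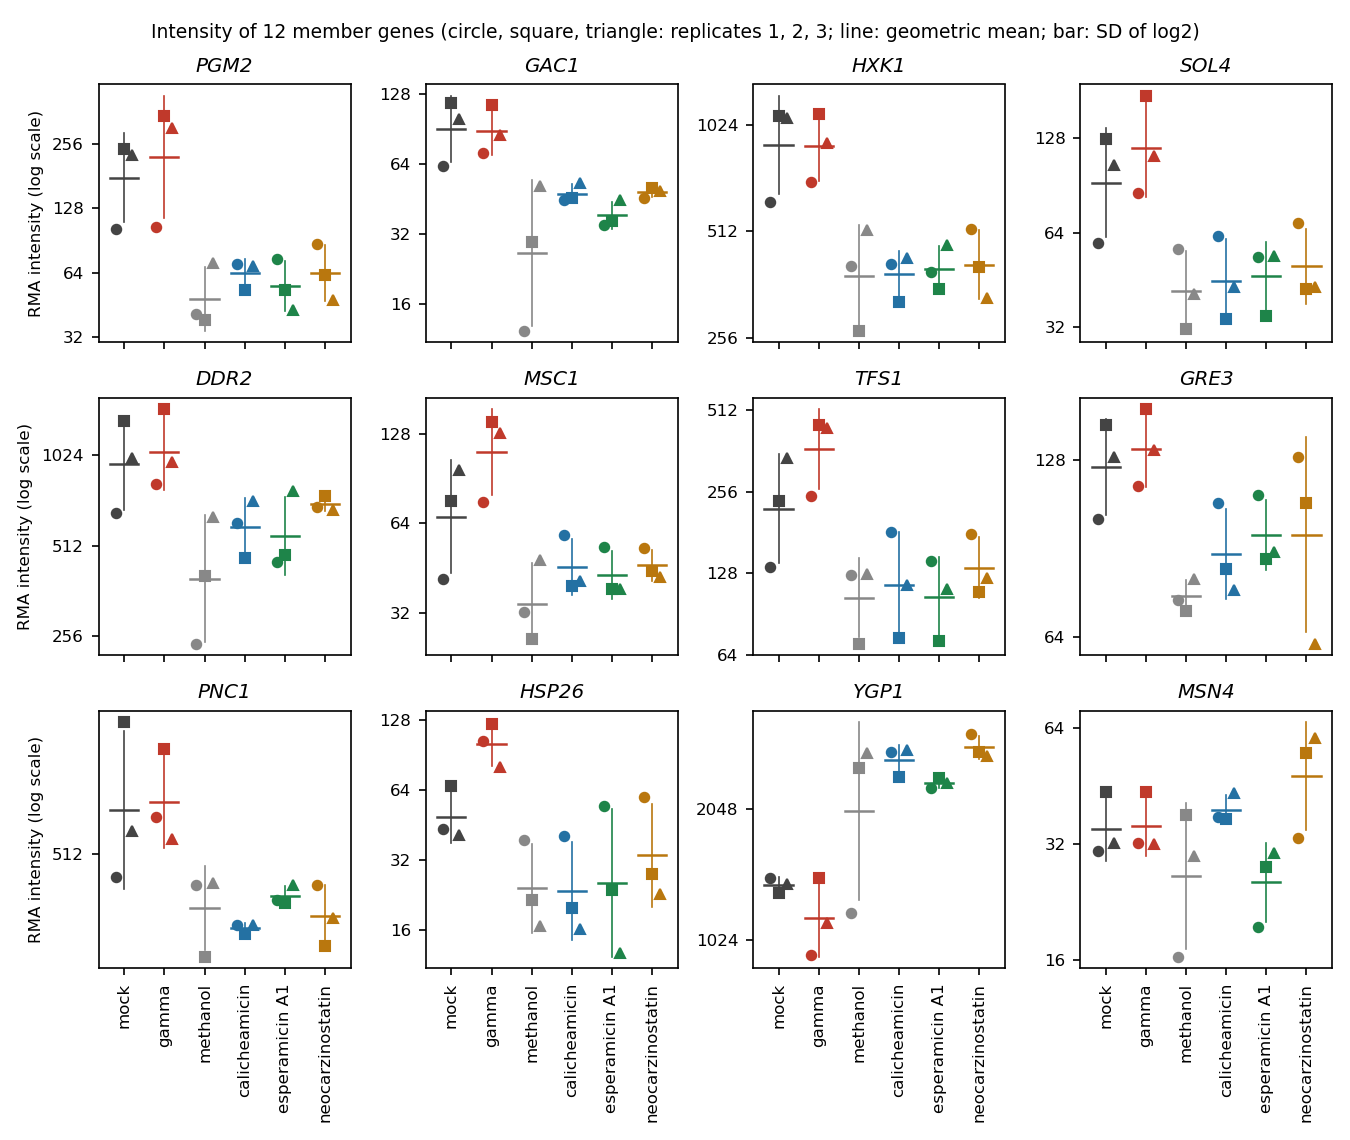
Intensity of 12 of the 38 genes on each array (vertical axis, log scale) by group (horizontal axis), with the geometric mean as a line and the SD of the log2 values as a bar; n = 3 in each group. *PGM2*, *GAC1*, *HXK1* and *PNC1* have no overlap between the arrays that received methanol and those that did not, *HSP26* is highest after γ-radiation (80.4 to 123), and methanol vehicle replicate 1 is the lowest array for *GAC1* (12.3), *DDR2* (242) and *MSN4* (16.4).

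None of the 5 trehalose genes and none of the 4 regulators was called between the controls, where 8.68% of all genes were called. *TPS2*, the trehalose 6-phosphate phosphatase gene, was 79.9, 78.1 and 122 in methanol vehicle and 91.0, 297 and 239 in mock irradiation (-1.03, standard error 0.41, adjusted p = 0.139 from limma), and mock irradiation replicate 1 overlapped the methanol arrays. The synthase gene *TPS1* had a log2 difference of -0.59 and the regulatory subunit gene *TSL1* one of -0.52, while *TPS3*, which encodes another regulatory subunit, and the neutral trehalase gene *NTH1* had 0.41 and 0.26. Of the regulators, *MSN2* had -0.23, *MSN4* -0.40, the kinase gene *YAK1* -0.54 and the repressor gene *XBP1* 0.28.

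The 9 called genes differed in how firmly they were called. *PGM2* was called in each of 28 alternative analyses, of which 18 leave out 1 array each. Among the 28 is the contrast of the 4 methanol groups with the 2 irradiation groups given below. That contrast includes treated arrays and was chosen after the data were examined, and it called all of the 9 genes but *GRE3*. Only 6 of the 18 arrays are controls. Omitting any other array leaves the difference unchanged and alters only its error estimate and adjusted p. *GAC1* and *HXK1* were called in 27, *DDR2* and *SOL4* in 24, *MSC1* in 21, *GRE3* in 18, *TFS1* in 13 and *PNC1* in 9. An adjusted p of 0.05 is not among the 28, and *MSC1*, *GRE3*, *TFS1* and *PNC1* did not pass it. Without methanol vehicle replicate 1 the calls were 5 genes lower, *GAC1* (-1.21), *PGM2* (-1.76), *HXK1* (-1.27), *SOL4* (-1.36) and *DCS2* (-1.72), and 1 higher, *YGP1* (0.96, adjusted p = 0.0034 from limma), with 6.84% of all genes called. The same 6 genes were called with the actin ratio of each array as a covariate, beside 5.50% of all genes. The count was 4 without methanol vehicle replicate 2 (7.83% of all genes), 15 without mock irradiation replicate 1 (8.61%), 3 without mock irradiation replicate 2 (5.14%) and 5 without mock irradiation replicate 3 (7.20%). It was 1, *PGM2*, in a fit of these 6 arrays alone, where 1.57% of all genes were called. The controls differed in vehicle and, by their labels, in mock irradiation. Their actin ratios differed too, from -3.59 to -0.77 in methanol vehicle and from -0.80 to -0.69 in mock irradiation. These differences cannot be told apart.

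Of the 38 genes, 18 had an unadjusted p under 0.05 between the controls, against 1307 of all genes. The 3 methanol arrays lay below the 3 mock irradiation arrays with no overlap for 9 genes, 8 of the called ones and *HSP26*, where 14.3% of all genes did so. *GAC1*, *PGM2*, *HXK1* and *PNC1* had all 12 arrays that received methanol below all 6 that did not, a pattern held by 2.67% of all genes. None of the 38 genes had the opposite pattern. In a contrast of the 4 methanol groups with the 2 irradiation groups, chosen after the data were examined, 20 of the 38 genes were called, with 9.99% of all genes called. Of these, 19 were lower with methanol and *YGP1* was higher (0.97). This contrast holds treated arrays on both sides, so the treatments enter it along with the controls.

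Other genes of the pathway were read from lists of 22 genes upstream of Msn2 and Msn4, 14 further genes of glycogen and trehalose metabolism, 22 further stress-induced genes and 13 paralogs of the 38. Beside them, 8.68% of all genes were called between the controls, 5.59% as lower, with a median log2 difference of -0.05. Between the controls, 1 upstream gene was called higher and 4 lower: *GIS1*, a transcription factor gene of stationary phase (-0.80), *BMH2*, a 14-3-3 protein gene (-0.90), *TPK2*, a catalytic subunit gene of protein kinase A (-0.89), and *PSR1*, a membrane phosphatase gene (-0.86). The median of this list was -0.07. Of the further glycogen and trehalose genes, 1 was called higher and 5 lower, among them *UGP1*, which makes the UDP-glucose that glycogen synthase uses (-1.01), *GLC7*, the phosphatase that Gac1 directs (-0.84), and the glycogenin gene *GLG2* (-0.70). The 1 called higher was the sporulation glucoamylase gene *SGA1* (0.75), and the median was -0.44.

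The further stress-induced genes held 8 called lower and 1 called higher, with a median of -0.40, beside 5.59% of all genes called lower. *HSP42*, a small heat shock protein gene, had the largest difference (-2.01, standard error 0.43, adjusted p = 0.0105 from limma). *DCS1*, a decapping enzyme gene (-1.18), the Hsp110 gene *SSE2* (-0.92) and the Hsp70 gene *SSA4* (-0.70) were also lower. Of the paralogs 2 were called lower, *EMI2*, a relative of *GLK1* (-0.84), and *DCS1*, which stands in both lists, and the median was 0.10. The paralogs *PGM1* (0.33) and *SOL3* (0.28) and the hexokinase gene *HXK2* (-0.31) were not called, beside -1.88, -1.14 and -1.22 for *PGM2*, *SOL4* and *HXK1*. The listed genes called higher that the naming rule left out were the karyopherin gene *MSN5* (0.59), which exports Msn2, and the glycerol phosphatase gene *GPP2* (0.93), and they were chosen after their values were seen. None of the genes on these lists was called in any other comparison.

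**Figure D3:**
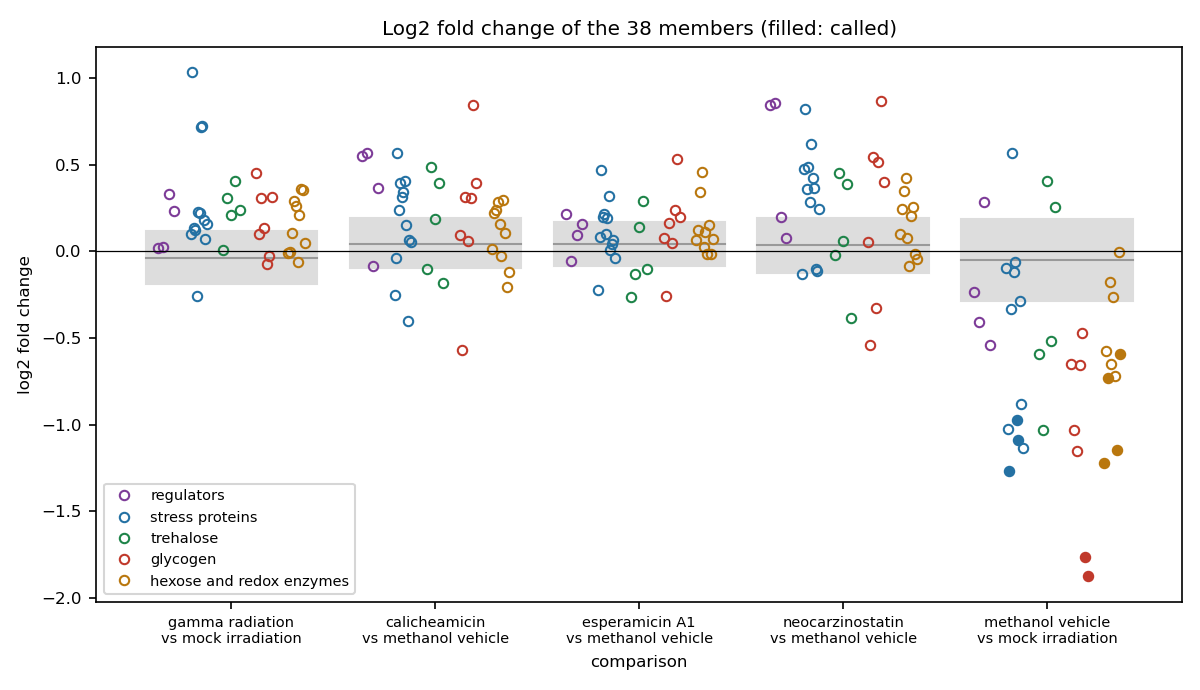
Log2 fold changes of the 38 genes (vertical axis) in 5 comparisons (horizontal axis), coloured by role, with called genes filled; the grey line and box give the median and the middle 50% of all 5656 genes. Called genes occur only in methanol vehicle against mock irradiation, where 9 are filled and the values reach from -1.88 to 0.57.

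γ-radiation was set against mock irradiation to ask which transcripts change with ionizing radiation. It gave higher means for 32 of the 38 genes, with a median log2 fold change of 0.20 beside -0.04 for all genes, but limma called 0 of the 38, where 0.902% of all genes were called. At an unadjusted p under 0.05 there were 2 members, *HSP26* and *MSC1*, and 492 of all genes. Medians by role were 0.24 for trehalose, 0.17 for the stress proteins, 0.16 for hexose and redox enzymes, 0.14 for glycogen and 0.13 for the regulators. Only *HSP26*, *TFS1* and *MSC1* had a change of 1.5-fold or more.

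*HSP26* (YBR072W) encodes a small heat shock protein that keeps unfolding proteins from aggregating. Its intensity was 104, 123 and 80.4 after γ-radiation and 43.5, 66.8 and 41.1 after mock irradiation, with no overlap. Irradiated arrays lay above mock-irradiated arrays with no overlap for 1 of the 38 genes and for 349 of all 5656 genes. The arrays with methanol were lower and spread wide, with 39.2, 21.5 and 16.7 in methanol vehicle, 40.6, 19.9 and 16.1 with calicheamicin, 54.8, 23.9 and 12.7 with esperamicin A1, and 59.7, 27.9 and 22.8 with neocarzinostatin. In each of these 4 groups replicate 1 was the highest. The log2 fold change with γ-radiation was 1.03 (standard error 0.47, adjusted p = 0.548 from limma), or 2.05-fold.

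Arrays of γ-radiation and mock irradiation with the same replicate number deviated together. Over all genes, the residuals of same-numbered arrays correlated at 0.65, 0.50 and 0.67, and over the 38 genes at 0.84, 0.58 and 0.77, as a description over genes of shared arrays. This was not particular to these groups. Over the 38 genes, methanol vehicle correlated with calicheamicin at 0.56, 0.39 and 0.65. With esperamicin A1 it correlated at 0.76, 0.70 and 0.53, and with neocarzinostatin at 0.77, 0.52 and 0.46. Within pairs, the ratio of irradiated to mock-irradiated intensity for *HSP26* was 2.39, 1.84 and 1.96. *TFS1* had ratios of 1.83, 1.90 and 1.30, and *MSC1* of 1.83, 1.84 and 1.33. These 3 genes were higher in the irradiated array of each pair, whereas their groups overlapped for *TFS1* and *MSC1*.

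In a fit that blocks by replicate number inside each control family, 3 of the 38 genes were called and 2.28% of all genes. They were *HSP26* (1.03, standard error 0.16, adjusted p = 0.00367 from limma), *TFS1* (0.73, adjusted p = 0.0390) and *MSC1* (0.72, adjusted p = 0.0848). Over the alternatives, the adjusted p of *HSP26* ranged from 0.000779 to 0.939. Irradiated arrays were above their mock-irradiated partners in all 3 pairs for 17 of the 38 genes, where 17.2% of all genes were. None of the 38 was below in all 3 pairs, where 26.8% of all genes were. *HSP26* alone among the 38 was at least 1.5-fold higher in each pair, a pattern seen in 0.495% of all genes.

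**Figure D4:**
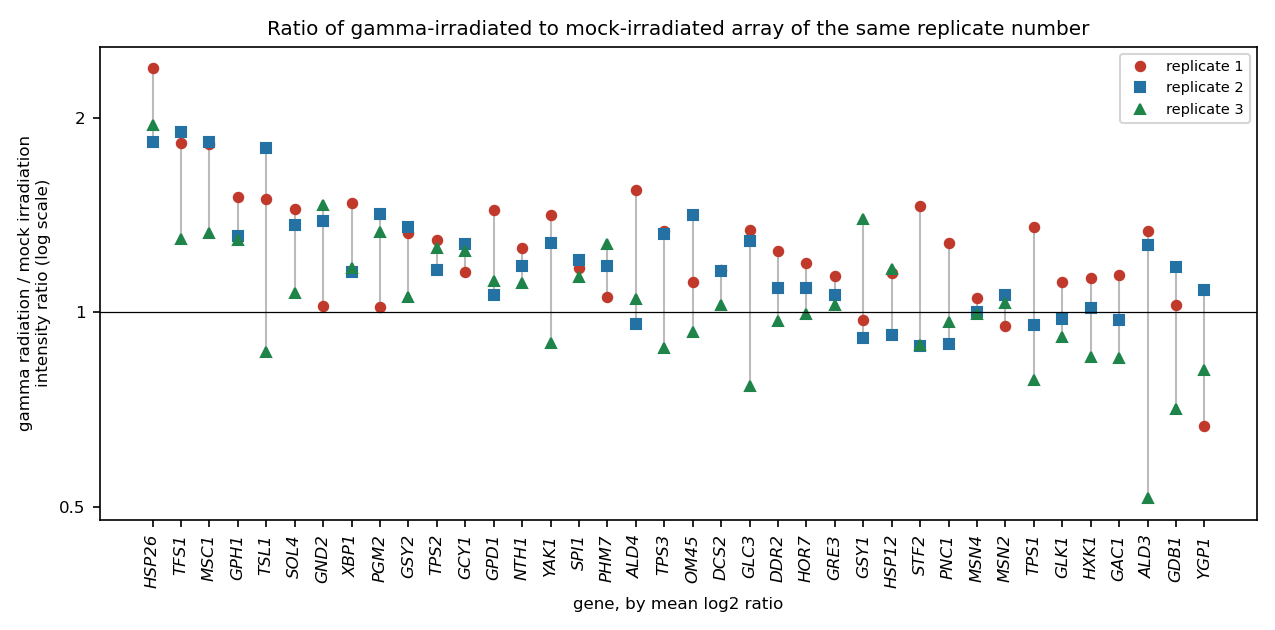
Ratio of the γ-irradiated to the mock-irradiated intensity (vertical axis, log scale) for each of the 38 genes (horizontal axis, ordered by mean log2 ratio), with 1 point for each replicate number. *HSP26* has the highest ratios (1.84 to 2.39), and *TFS1* and *MSC1* follow, with replicate 3 closer to 1 (1.30 and 1.33).

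No other gene was called in these fits. *PGM2* had pairs of 104 and 102, 344 and 242, and 301 and 226 (0.32, standard error 0.41), and *DDR2* pairs of 818 and 656, 1448 and 1327, and 971 and 1002 (0.13, standard error 0.32). In *PGM2* the difference between replicate 1 and the others was larger than that between irradiated and mock-irradiated arrays. In *DDR2* replicate 1 was the lowest array of both groups, but after γ-radiation it stood at 818 beside 971 in replicate 3. *GPH1* (0.45) and *TSL1* (0.41) had the next largest log2 fold changes, and *YGP1* (-0.26) was the most negative. *MSN2* had a log2 fold change of 0.02 and *MSN4* of 0.02. The 95% confidence interval of the change lay within 2-fold in either direction for 23 of the 38 genes and within 1.5-fold for 6, and for the other 15 it reached past 2-fold.

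The enediynes were set against methanol vehicle to ask which transcripts change with DNA strand breaks made by a selective agent. For calicheamicin, esperamicin A1, neocarzinostatin and the mean of the 3, limma called 0 of the 38 genes and 0% of all genes in each. At an unadjusted p under 0.05 there were 2, 0, 7 and 4 members, beside 220, 207, 464 and 324 of all genes. The local pooled error test named in the methods, rewritten here from its description, called 0 members and 4, 8, 8 and 8 genes. Medians of the 38 genes were 0.20, 0.10, 0.25 and 0.17 on the log2 scale, and those of all genes were 0.05, 0.04, 0.04 and 0.04.

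None of the 4 regulators was called with any treatment, and *MSN2* and *MSN4* had their largest log2 fold changes with neocarzinostatin, where *YAK1* had 0.08 and *XBP1* 0.20. *MSN2* (YMR037C) was 52.7, 71.7 and 74.1 with neocarzinostatin, 59.5, 47.8 and 53.5 with calicheamicin and 40.2, 49.8 and 38.1 with esperamicin A1, and methanol vehicle gave 21.2, 56.2 and 40.7. Mock irradiation gave 49.99, 41.3 and 38.1, and γ-radiation 47.7, 44.0 and 39.4. Replicate 1 of methanol vehicle was the lowest of the 18 arrays, and the neocarzinostatin range overlapped methanol vehicle through replicate 2. The log2 fold changes were 0.84 with neocarzinostatin (standard error 0.26, adjusted p = 0.514 from limma), 0.55 with calicheamicin and 0.22 with esperamicin A1. Without methanol vehicle replicate 1 they were 0.45, 0.16 and -0.17.

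*MSN4* (YKL062W) was 33.2, 55.1 and 60.3 with neocarzinostatin, 37.6, 37.1 and 43.4 with calicheamicin, 19.5, 27.9 and 30.4 with esperamicin A1 and 16.4, 38.03 and 29.8 in methanol vehicle. Mock irradiation gave 30.6, 43.6 and 32.1, and γ-radiation 32.2, 43.7 and 32.01. Its log2 fold change was 0.86 with neocarzinostatin (standard error 0.28, adjusted p = 0.531), 0.57 with calicheamicin and -0.05 with esperamicin A1, and without methanol vehicle replicate 1 these were 0.51, 0.22 and -0.40. Neocarzinostatin replicates 2 and 3 held the highest intensities of both genes over all 18 arrays, and replicate 1 did not share them.

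In the fit of all arrays *GAC1* had the largest change of the 38 genes with each enediyne, 0.84 for calicheamicin, 0.87 for neocarzinostatin, 0.53 for esperamicin A1 and 0.75 on average (standard error 0.29, adjusted p = 0.817 from limma). Its 9 enediyne arrays were close together, between 34.9 and 52.9, and the methanol arrays were spread from 12.3 to 51.2. With all 6 control arrays as the control, these changes were -0.037, -0.015, -0.35 and -0.13 in the same order. That control includes mock irradiation, where *GAC1* was higher than in methanol vehicle. Without methanol vehicle replicate 1 the changes were 0.29, 0.31, -0.021 and 0.19. *DDR2* (0.82), *PHM7* (0.62) and *GDB1* (0.51), with *MSN2*, *MSN4*, *HOR7* (0.36) and *GAC1*, were the 7 genes with an unadjusted p under 0.05 for neocarzinostatin. *PHM7* was dim, between 3.72 and 7.85 over all arrays and below the array medians. Methanol vehicle replicate 1 was the lowest vehicle array for *DDR2* (242), *HOR7* (2430) and *PHM7* (3.74) as well, but not for *GDB1*. *HSP26* had -0.04, 0.08 and 0.47 with calicheamicin, esperamicin A1 and neocarzinostatin. Within the mean of the enediynes, the 95% confidence interval lay within 2-fold for 30 of the 38 genes and within 1.5-fold for 8.

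The 3 enediynes were given at different concentrations matched for lethality, and their values stand side by side here. limma called 0 of the 38 genes in each of the 3 pairs, and 0% of all genes. At an unadjusted p under 0.05, calicheamicin differed from esperamicin A1 in 1 member (*MSN4*) and from neocarzinostatin in 0. Esperamicin A1 differed from neocarzinostatin in 3 (*MSN4*, *MSN2* and the dim *PHM7*). Of all 5656 genes, 201, 172 and 414 did so in these pairs. By the local pooled error test, 0 members and 20, 2 and 14 genes were called in these pairs. *MSN4* was lower with esperamicin A1 than with neocarzinostatin by a log2 difference of -0.91 (95% confidence interval -1.50 to -0.32, adjusted p = 0.578 from limma). Its 3 esperamicin A1 arrays lay below the 3 neocarzinostatin arrays, a pattern held by 5 of the 38 genes and 436 of all 5656 genes. The confidence interval lay within 2-fold for 26, 28 and 23 of the 38 genes in the 3 pairs, in the same order.

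The γ-radiation effect minus the mean enediyne effect asks whether the responses differ. 0 of the 38 genes were called by limma, where 0.336% of all genes were, and 0 members had an unadjusted p under 0.05, beside 402 of all genes. The local pooled error test called 0 members as well and 15 genes. The largest differences were 0.86 for *HSP26* (standard error 0.61, adjusted p = 0.780) and -0.77 for *GAC1* (standard error 0.46, adjusted p = 0.722). With all 6 control arrays as a common control, the controls cancel and the contrast becomes γ-irradiated against enediyne-treated cells, and 19 of the 38 genes were called, 18 higher after γ-radiation and *YGP1* lower, where 12.2% of all genes were called. No control enters this contrast, so what separates methanol vehicle from mock irradiation is part of it.

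The 38 genes also moved together among replicates of 1 group. Replicate 1 was the lowest of the 3 mock irradiation arrays for 33 of the 38 genes (29.3% of all genes), the lowest of the 3 γ-radiation arrays for 30 (26.0% of all genes), and the lowest of both for 28 (14.1% of all genes). The median deviation of the 38 genes from their own means was -0.25, 0.60 and 0.53 in mock irradiation replicates 1 to 3 and 0.00, 0.80 and 0.51 in those of γ-radiation. *GPH1* shows the size of this: 64.7, 224 and 282 in mock irradiation and 97.8, 294 and 365 after γ-radiation.

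In the enediyne groups the order was different. Replicate 1 was the highest array in all 3 enediyne groups for 19 of the 38 genes, against 7.27% of all genes, and the highest in methanol vehicle as well for 11 of them, against 4.40% of all genes. Calicheamicin replicate 2 was the lowest of its group for 30 of the 38 genes, where 35.2% of all genes were. Medians of the deviations were 0.09, -0.36 and -0.09 for calicheamicin, -0.02, -0.44 and -0.16 for esperamicin A1, 0.15, -0.25 and -0.20 for neocarzinostatin, and -0.30, -0.64 and -0.13 for methanol vehicle. Among all genes, the median deviations of the 18 arrays lay between -0.07 and 0.04. *HSP12*, a membrane-associated small heat shock protein gene, had replicate 1 as the lowest array in each of the 6 groups, with 91.6, 276 and 333 under esperamicin A1, and so did *ALD4*, with 114, 223 and 251, and *GAC1*. What sets the replicates of a group apart was not tested.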

How the data were processed

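The deposited intensities are RMA values: the authors corrected background, normalized the arrays by quantiles and summarized each probe set, and they gave the result unlogged. The version of RMA and the genome build are not given in the sources used here. Their log2 was taken with no further scaling. Of the 9335 probe sets, 6504 match 1 gene symbol in the platform annotation, 328 match several, 2443 have none and 60 are controls. Each gene is its probe set with the highest mean, which gives 5656 genes, and 1 of the 38 (*YAK1*) had other probe sets. Absent/Present calls were not used.

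All comparisons are contrasts of 1 model of the 18 arrays in 6 groups, fitted by lmFit and eBayes of limma 3.58.1 under R 4.3.3 with 12 degrees of freedom left, with p-values adjusted over all genes. Log2 fold changes had a median standard error of 0.20. The number of arrays limits the precision: with 3 against 3, a two-sided exact permutation p is at least 0.10. Alternatives run were the local pooled error test that the methods name (written anew from its description, so its counts can differ from those of the original package), other scalings, thresholds and groups of arrays, the actin covariate, replicate blocks and the omission of each array.

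The pairing of γ-radiation with mock irradiation comes from the values: same-numbered arrays had residual correlations above 0.10 in all 3 pairs. Over all genes, this held for calicheamicin (0.17, 0.13 and 0.40) and neocarzinostatin (0.37, 0.18 and 0.12) with methanol vehicle. It did not hold over all genes for esperamicin A1 (0.19, 0.35 and -0.09) or for methanol vehicle with mock irradiation (-0.16, -0.10 and -0.15).

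The 38 genes and the other lists were chosen with earlier results of these data known. Named with every array are the genes called in any comparison, *MSN2*, *MSN4*, *HSP26* and the gene with the largest change in each comparison with a control or between effects; of the other lists, up to 4 called genes a comparison by adjusted p. Of 23 upstream genes 22 had a probe set with 1 symbol. Promoter and protein sequences were not used here.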

Additional observations from a re-analysis of the deposited data

How the results depend on the processing

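Counts of called genes among the 38 were 0 for each enediyne and each pair of enediynes under every alternative run. Blocking by replicate number inside each control family gave 3 for γ-radiation (2.28% of all genes), as did a blocked fit of only its 6 arrays (3.06%, chosen after the data were examined), against 0 without a block and 0 with 1 block over all arrays; the pairing moved no other count by over 1.5 times. The local pooled error test gave 1 for γ-radiation, *HSP26* (0.654% of all genes). Pooling the 6 control arrays gave 5 for γ-radiation (3.11% of all genes) and 1 for the mean of the enediynes (1.31%). It gave 19 for the difference between these effects (12.2%). Such a control is the mean of both control groups, so the difference between them enters the γ-radiation and enediyne effects. Among the 5, *PGM2* had 1.25 and *SOL4* 0.93, beside 0.32 and 0.36 against mock irradiation alone. The 1 enediyne call, *YGP1*, had 0.65, beside 0.37 against methanol vehicle alone. For methanol vehicle against mock irradiation, the count of 9 became 5 at an adjusted p of 0.05 (6.06% of all genes), 1 in a fit of the compared groups alone (1.57%) and 20 in the contrast of 4 methanol groups with 2 irradiation groups (9.99%). Leaving out single arrays gave from 3 (5.14% of all genes) to 15 (8.61%). The highest share of all genes called in these fits was 12.1%. The local pooled error test gave 12 (2.85%), of which 6 were shared, and a fit without methanol vehicle replicate 1 and the esperamicin A1 arrays gave 8 (7.11%). Other scalings gave 7 (8.98%) and 11 (10.3%), and they moved the median of all genes by at most 0.06 on the log2 scale.

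The sign of some uncalled log2 fold changes depended on the setting. Against the 6 pooled control arrays, *GAC1* was -0.037 for calicheamicin, -0.015 for neocarzinostatin, -0.35 for esperamicin A1 and -0.13 in the mean of the enediynes, and *HSP26* was -0.43 with esperamicin A1, -0.038 with neocarzinostatin and -0.34 in the mean. With the actin covariate, *HSP26* was 0.29 with calicheamicin and *MSN2* was 0.17 between the controls. *MSN2* between the controls was 0.16 in the contrast of 4 with 2 groups and 0.16 without methanol vehicle replicate 1 and the esperamicin A1 arrays. The local pooled error test gave -0.018 for *MSN2* with esperamicin A1. Leaving out single arrays, *MSN2* ranged from -0.062 to 0.13 with γ-radiation, from -0.17 to 0.53 with esperamicin A1 and from -0.54 to 0.16 between the controls. *MSN4* ranged from -0.13 to 0.18 with γ-radiation and from -0.40 to 0.21 with esperamicin A1. *HSP26* ranged from -0.43 to 0.31 with calicheamicin, from -0.47 to 0.58 with esperamicin A1 and from -0.094 to 0.52 with the mean of the enediynes, and *GAC1* from -0.021 to 1.01 with esperamicin A1. None of these changes was called in the analysis reported. The pooled control is the mean of both control groups, so the difference between them enters the changes against it. Why the sign moved in the other settings was not tested. The number of arrays limits what can be said of small changes: the 95% confidence interval lay within 1.5-fold for 6 of the 38 genes with γ-radiation and for 8 with the mean of the enediynes.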
